A study of Mus musculus with 10 samples.

Results

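The genes described are 10 members of the bone morphogenetic protein (BMP) pathway: the ligands Bmp4 and Bmp2, the receptor Bmpr1a, the secreted antagonist Grem1, the inhibitory Smads Smad6 and Smad7, and the target genes Id1, Id2, Id3 and Id4. They were taken by gene symbol in the platform annotation, which gave them 18 probe sets out of 22626, and 10 genes out of 12393. Signals came from fibroblasts of mouse embryos, the cells that lay down connective tissue, on 10 Affymetrix arrays. The cells had lost G9a (gene Ehmt2), a histone H3 methyltransferase, and were given back FLAG-G9a with the K165A substitution (K165A), FLAG-G9a with the catalytic substitution H1093K (H1093K), wild-type FLAG-G9a (WT) or an empty vector (delta). One more group is titled only as deleted, with no vector named. Each group had 2 arrays. The labels do not say whether a group's 2 arrays hold separate cultures, or whether a line was a clone or a pool, so the p-values measure a spread between arrays that may be technical.

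BMPs are secreted ligands that bring together type I receptors, of which Bmpr1a is one, and type II receptors. The receptors phosphorylate Smad proteins, which enter the nucleus with Smad4 and switch on genes, among which the Id genes and Smad6 are classic targets. Id proteins carry a helix-loop-helix domain without a DNA-binding region and hold partners such as Tcf3, Tcf4 and Tcf12 away from DNA. Smad6 and Smad7 feed back to block the receptors, and gremlin (Grem1) binds BMPs outside the cell. In fibroblasts and other mesenchymal cells the pathway is known for its part in bone and cartilage formation.

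The RefSeq promoter table for GRCm38.p6 held a promoter for 7 of the 10 genes. The windows of Bmp4 (chr14:46390670-46390919, minus strand), Smad6 (chr9:64022060-64022309, minus strand), Id2 (chr12:25096093-25096342, minus strand), Id3 (chr4:136143572-136143821, plus strand) and Id4 (chr13:48260866-48261115, plus strand) are shown because these are the genes with a window that were called lower in H1093K than in WT. Each is the 250 bases before the annotated start, 5′ to 3′ along the gene, with capitals for the letters GGCGCC and GTCT, known from Smad-bound DNA, on either strand (GTCT on the other strand reads AGAC).
Bmp4: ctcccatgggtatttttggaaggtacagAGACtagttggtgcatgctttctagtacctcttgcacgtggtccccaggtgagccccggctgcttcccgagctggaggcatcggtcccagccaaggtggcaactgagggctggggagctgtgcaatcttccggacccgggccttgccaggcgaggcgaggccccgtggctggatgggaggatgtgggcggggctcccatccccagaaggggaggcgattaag
Smad6: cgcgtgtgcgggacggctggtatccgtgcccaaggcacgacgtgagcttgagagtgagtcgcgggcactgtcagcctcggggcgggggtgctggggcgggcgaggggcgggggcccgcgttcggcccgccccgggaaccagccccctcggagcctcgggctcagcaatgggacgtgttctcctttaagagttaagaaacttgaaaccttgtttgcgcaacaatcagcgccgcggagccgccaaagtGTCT
Id2: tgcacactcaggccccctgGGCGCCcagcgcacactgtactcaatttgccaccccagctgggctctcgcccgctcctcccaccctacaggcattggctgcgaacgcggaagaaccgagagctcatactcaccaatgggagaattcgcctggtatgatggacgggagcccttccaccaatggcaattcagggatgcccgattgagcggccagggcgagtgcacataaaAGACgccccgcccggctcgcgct
Id3: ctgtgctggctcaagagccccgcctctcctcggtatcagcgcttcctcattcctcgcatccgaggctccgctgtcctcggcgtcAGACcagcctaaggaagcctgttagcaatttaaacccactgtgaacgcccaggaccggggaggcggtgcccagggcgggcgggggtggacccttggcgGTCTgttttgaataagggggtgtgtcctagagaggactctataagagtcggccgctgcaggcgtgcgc
Id4: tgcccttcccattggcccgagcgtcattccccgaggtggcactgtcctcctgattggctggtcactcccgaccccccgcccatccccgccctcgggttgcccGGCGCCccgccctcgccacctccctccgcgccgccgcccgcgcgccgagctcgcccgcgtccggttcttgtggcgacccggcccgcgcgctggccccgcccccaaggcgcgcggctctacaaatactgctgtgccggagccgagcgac
GGCGCC was found in 4 of the 7 windows and in 9.6% of all 32851 windows of that length, and GTCT in 5 of the 7 and in 82.9% of all. The 2 did not overlap in these windows. GGCGCC was in the windows of Id2, Id4, Bmpr1a and Grem1, and Bmpr1a and Grem1 were not called in H1093K against WT. The 7 windows held 62.8% to 78.8% G and C. The windows of all promoters were not matched for this, so nothing is read from the 4 of 7. GGCGCC followed after 5 bases by GTCT was in 0 of the 7 windows and in 0.1% of all. A match describes the letters of this window and is not evidence of binding.

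Ehmt2 checks the labels. Its probe set of highest signal read 704 and 725 in K165A, 461 and 494 in H1093K, 1678 and 1750 in the arrays labelled as deleted, 676 and 620 in WT, and 473 and 415 in delta. The highest level was thus in the arrays labelled as deleted, which goes against that label, and H1093K overlapped delta. A second, dimmer Ehmt2 probe set read 90.4 and 178 in K165A, 116 and 55.7 in H1093K, 162 and 247 in the arrays labelled as deleted, 40.9 and 106 in WT, and 7.13 and 36.5 in delta. The labels do not say which exons were deleted, so these probe sets may lie outside them. Median signals of the 10 arrays lay between 180.9 and 199.3. Of 10 fibroblast markers, Col1a1, Col1a2, Fn1 and Vim read between 7011 and 15818 on every array, but Lum stayed at or below 53.9, and Dcn and Pdgfra read 1357 or more only in the arrays labelled as deleted and 81.7 or less elsewhere. Summed signals of other cell types were low for macrophages and leukocytes (6 markers, 492 to 611), endothelium (5 markers, 192 to 313) and pluripotent cells (4 markers, 34.2 to 93.6). Single markers differed. Of the endothelial list, Tie1 was at or below 10.9, while Kdr read 81.3 to 128 and Tek 38.3 to 149. Of the leukocyte list, Csf1r read 111 to 195 and Cd14 149 to 199. The 6 epithelial markers summed to 610 to 690 in K165A, 887 to 999 in H1093K, 4454 to 4477 in the arrays labelled as deleted, 773 to 815 in WT and 1229 to 1398 in delta. The part of these differences in the results that follow was not tested. In such bulk samples, fewer cells of a type and less RNA per cell cannot be told apart.

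Across the 4 groups that the design names, 6 of the 9 members tested differed, namely Bmp4, Smad6 and all 4 Id genes, against 11.9% of the 13576 probe sets tested (limma F test, Benjamini-Hochberg adjusted p under 0.05 over all of them). Their adjusted p ran between 4.28e-06 for Bmp4 and 0.0031 for Id3. Bmpr1a (adjusted p = 0.0772), Smad7 (0.0696) and Grem1 (0.856) did not pass, and Bmp2 was too dim to be tested. With the replicate block 8 passed, Smad7 (0.00679) and Bmpr1a (0.0152) besides the 6, and with quantile normalization Bmpr1a passed (0.0411). The 11.9% is the share without the block, and the share with it was not counted for this test. In WT against delta the block took the calls over all probe sets from 1664 to 2863. The members tested are those whose mean signal reached the 40th percentile, 103.5. Grem1 reached it only through the arrays labelled as deleted and was not tested without them. The members were chosen with earlier results of these data known, so their counts, here and below, are a description.

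**Figure D1:**
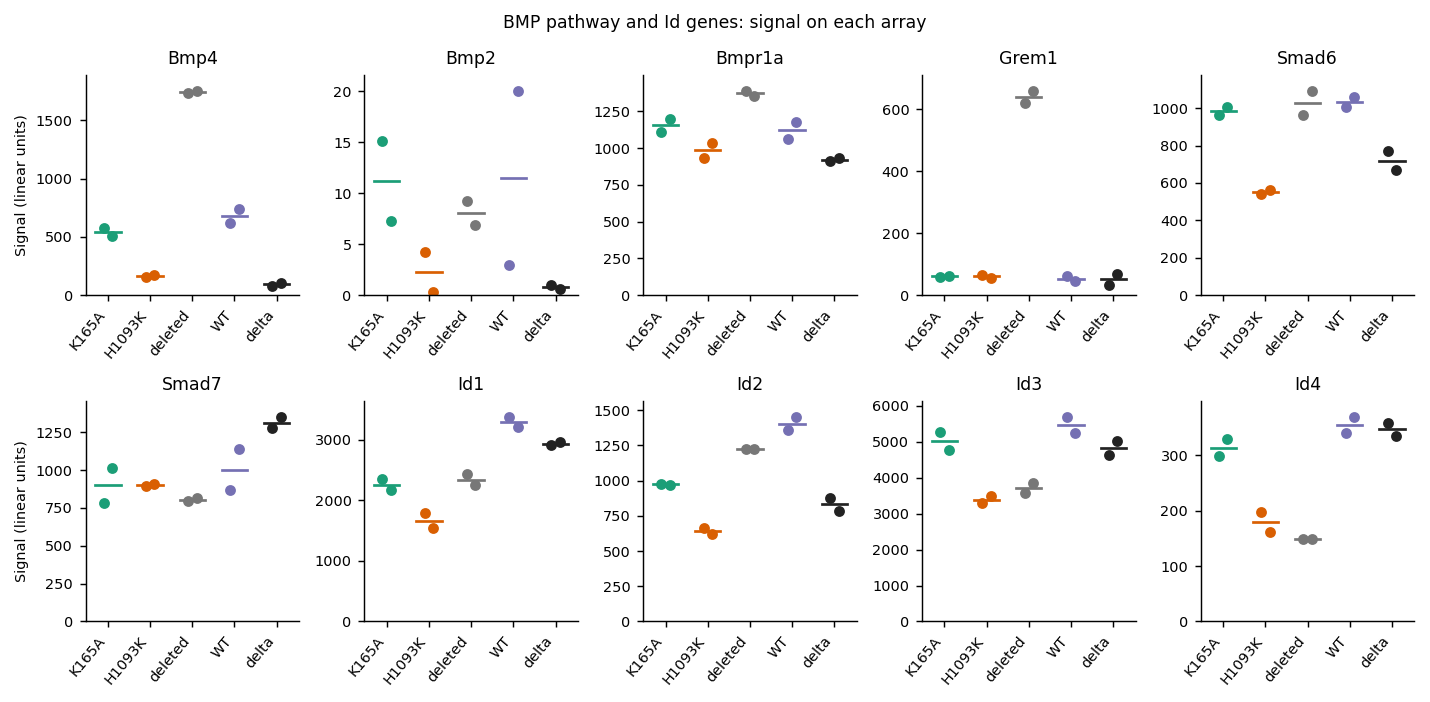
Signal in linear units (y axis, from 0) of the 10 genes on each array, by the probe set of highest mean. Points are arrays, horizontal lines are means of 2, and groups run K165A, H1093K, deleted, WT, delta. Bmp4 sits between 507 and 739 on the K165A and WT arrays and between 82.2 and 172 on the H1093K and delta arrays, while the lowest Id1 and Id3 values are in H1093K.

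Among the ligands, Bmp4 stood at very different levels in the 5 groups. It read 577 and 507 in K165A, 153 and 172 in H1093K, 1735 and 1753 in the arrays labelled as deleted, 623 and 739 in WT, and 82.2 and 107 in delta. From high to low the order was the arrays labelled as deleted, WT, K165A, H1093K and delta, and no group overlapped its neighbour. WT lay above delta by 2.66 ± 0.14 (log2 difference ± SE, here and below on the log2(signal + 16) scale) and K165A above delta by 2.34 ± 0.14, with limma adjusted p of 3.95e-06 and 4.74e-06. H1093K against WT gave -1.96 ± 0.14, a fall of 3.89-fold (adjusted p = 2.99e-05). Against delta, H1093K was 0.70 higher (95% interval 0.39 to 1.01), with adjusted p = 0.0529, and passed with the replicate number as a block (adjusted p = 0.0133). It also passed with a pseudocount of 4 (0.0497) or the filter at the 60th percentile (0.0461). The neighbours WT and K165A, with a difference of -0.32 for K165A minus WT (-0.63 to -0.01), did not pass. The arrays labelled as deleted exceeded delta 16.03-fold and WT 2.53-fold (adjusted p = 4.37e-08 and 6.01e-05). Bmp2, the close relative of Bmp4, was near background: 15.1 and 7.29 in K165A, 4.24 and 0.294 in H1093K, 9.22 and 6.91 in the arrays labelled as deleted, 2.93 and 20.0 in WT, and 1.0 and 0.588 in delta. No fold is given for it.

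The receptor Bmpr1a varied little. Its brightest probe set read 1111 and 1197 in K165A, 936 and 1036 in H1093K, 1389 and 1357 in the arrays labelled as deleted, 1060 and 1180 in WT, and 910 and 932 in delta. Levels were thus highest in the arrays labelled as deleted and lowest in delta, within a narrow range. It was 1.25-fold higher in K165A than in delta (adjusted p = 0.0373). That call did not hold without either K165A array (0.0699 and 0.176), either deleted array (0.0595 and 0.0591), either delta array (0.136 and 0.113), or both deleted arrays (0.0603), with no filter (0.0537) and with median centring (0.0693). WT against delta gave 0.28 (0.09 to 0.46; adjusted p = 0.0620, 0.0155 with the replicate block). The other 4 Bmpr1a probe sets gave no call in K165A, H1093K or WT, and 1 of them rose in the arrays labelled as deleted against delta (log2 difference 0.60, adjusted p = 0.0266).

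Grem1 was near its delta level in the 3 other groups of reconstituted cells and high in the arrays labelled as deleted. It read 57.7 and 63.0 in K165A, 65.3 and 56.8 in H1093K, 621 and 660 in the arrays labelled as deleted, 60.9 and 46.1 in WT, and 31.9 and 69.9 in delta. The arrays labelled as deleted exceeded delta 10.2-fold and WT 9.49-fold. These folds are a description, since Grem1 passed the filter on dim probe sets only through the arrays in which it was high. Against delta the interval was -0.34 to 0.84 in K165A, -0.32 to 0.85 in H1093K and -0.48 to 0.69 in WT, so changes within those bounds were not detectable with 2 arrays.

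The inhibitory Smads moved apart. Smad6 read 964 and 1007 in K165A, 540 and 562 in H1093K, 965 and 1092 in the arrays labelled as deleted, 1007 and 1058 in WT, and 770 and 670 in delta. H1093K was the lowest group, below delta, without overlap. Smad6 fell 1.85-fold in H1093K against WT (adjusted p = 0.000262). It rose 1.43-fold in WT and 1.36-fold in K165A against delta (adjusted p = 0.00648 and 0.0135). The WT call was lost without WT replicate 2 (0.0549) or delta replicate 2 (0.0505), and the K165A call without K165A replicate 2 (0.0767) or delta replicate 2 (0.0956). In H1093K against delta the difference was -0.37 (-0.58 to -0.16), with adjusted p = 0.120, or 0.0435 with the replicate block. Smad7, by contrast, was highest in delta: 782 and 1016 in K165A, 894 and 911 in H1093K, 795 and 815 in the arrays labelled as deleted, 867 and 1137 in WT, and 1277 and 1350 in delta. All 8 other arrays lay below both delta arrays. Smad7 fell 1.46-fold in K165A (adjusted p = 0.0318), which was lost without K165A replicate 1 (0.182), delta replicate 1 (0.0841) or delta replicate 2 (0.141), and with no filter (0.0537). In H1093K and WT the differences from delta were -0.53 (-0.85 to -0.22) and -0.40 (-0.71 to -0.08), with adjusted p of 0.134 and 0.101, and both passed with the replicate block (0.0170 and 0.0172). The WT difference also passed without WT replicate 2 (0.0478).

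Id1 and Id3, the brightest of the Id genes, were lowest in H1093K. Id1 read 2350 and 2165 in K165A, 1784 and 1543 in H1093K, 2427 and 2256 in the arrays labelled as deleted, 3373 and 3215 in WT, and 2917 and 2960 in delta. The order was WT, delta, the arrays labelled as deleted, K165A and H1093K, and only K165A and the arrays labelled as deleted overlapped as neighbours. Id1 fell 1.98-fold in H1093K against WT (adjusted p = 9.17e-05) and 1.76-fold against delta (0.00419, lost without H1093K replicate 2 at 0.0635). It fell 1.30-fold in K165A against delta (adjusted p = 0.0218), which was lost without K165A replicate 2 (0.123), delta replicate 1 (0.0784) or delta replicate 2 (0.103). WT lay 0.16 above delta (-0.03 to 0.36), which did not pass. Id3 read 5283 and 4758 in K165A, 3283 and 3492 in H1093K, 3584 and 3861 in the arrays labelled as deleted, 5684 and 5251 in WT, and 4632 and 5008 in delta. Here the WT, K165A and delta arrays lay close together, above those of the other two groups. Id3 fell 1.61-fold in H1093K against WT (adjusted p = 0.00112) and 1.42-fold against delta (0.0429, or 0.0148 with the block). With 1 array left out, the call against delta held without either K165A array and was lost without any one of the other 8 arrays (0.0594 to 0.271), without both deleted arrays (0.0770), with no filter (0.0708) and with median centring (0.0761).

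Id2 followed the order of Smad6 more than that of Id1. Its brightest probe set read 977 and 970 in K165A, 662 and 620 in H1093K, 1224 and 1224 in the arrays labelled as deleted, 1359 and 1450 in WT, and 879 and 784 in delta, with no overlap between any of the groups. Id2 rose 1.68-fold in WT against delta (adjusted p = 0.000269) and fell 2.16-fold in H1093K against WT (3.08e-05). K165A lay 0.23 above delta (0.05 to 0.41; adjusted p = 0.108), and H1093K 0.37 below it (-0.55 to -0.19; adjusted p = 0.0770, or 0.0227 with the block). A second Id2 probe set gave the same calls in WT against delta (1.04 ± 0.16) and in H1093K against WT (-1.36 ± 0.16), while the dimmest, at 100 to 215, gave 0.36 and -0.32 and passed in neither.

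Id4 was dimmer, and its lowest levels were those of the arrays labelled as deleted, then those of H1093K. It read 299 and 329 in K165A, 198 and 162 in H1093K, 149 and 149 in the arrays labelled as deleted, 341 and 369 in WT, and 359 and 336 in delta. WT and delta overlapped, with K165A just below them. Id4 fell 1.90-fold in H1093K against WT (adjusted p = 0.00167) and 1.86-fold against delta (0.0183), and the second call was lost without either H1093K array (0.0563 and 0.125) or either delta array (0.0886 and 0.104). Of the other Id4 probe sets, 1 gave -0.998 ± 0.18 in H1093K against WT (adjusted p = 0.00648) and -0.82 against delta, which did not pass (0.0711). The other, with 327 and 157 on the K165A arrays, gave 0.29 (-0.35 to 0.92) in H1093K against WT.

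**Figure D2:**
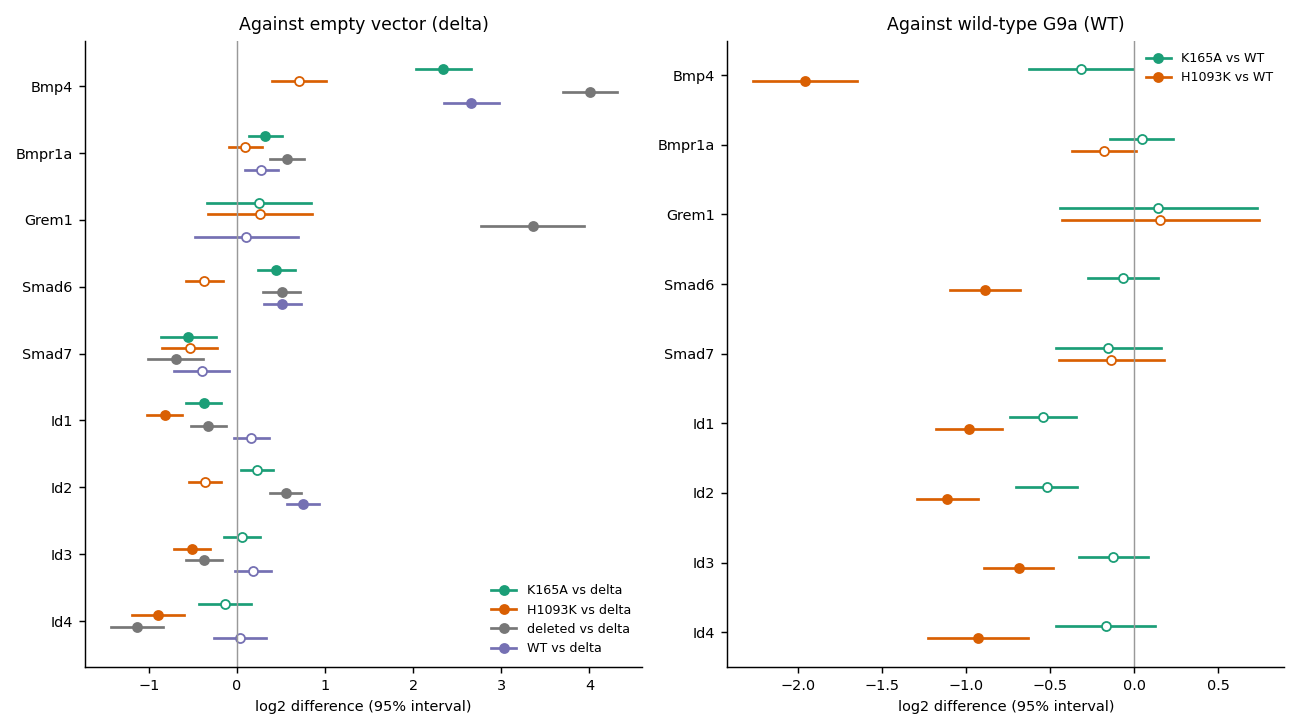
Log2 differences on the log2(signal + 16) scale (x axis) with 95% intervals for the 9 genes tested, against delta on the left and against WT on the right. Filled points passed limma at an adjusted p of 0.05 and open points did not. Bmp4, Smad6 and the 4 Id genes lie left of 0 in H1093K against WT, and the Bmp4 points in WT and K165A lie at 2.66 and 2.34 against delta.

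Set against WT as a whole, the catalytic mutant H1093K had 6 of the 9 tested members lower and 0 higher: Bmp4, Smad6, Id1, Id2, Id3 and Id4. Of all probe sets tested, 8.38% were called in this comparison, 4.25% as higher and 4.13% as lower. The median difference was -0.89 over the 9 members and 0.01 over all probe sets. The members were chosen with earlier results of these data known, so this contrast may follow in part from that choice. Leaving out any 1 array kept the count at 6, and so did every other alternative except the filter at the 60th percentile, under which Id4 was not tested and 5 were called. Against delta, H1093K had 3 members lower and 0 higher (0.869% of all probe sets called, 0.471% higher and 0.398% lower), with a median of -0.37. With the replicate block the count was 7, of which Bmp4 was higher. It was 1 without H1093K replicate 1, delta replicate 1 or delta replicate 2, and 0 without H1093K replicate 2. Both comparisons use the same H1093K arrays. Other measures moved with them. Ehmt2 fell 1.34-fold in H1093K against WT by its brighter probe set (adjusted p = 0.0180). The dimmer one gave 0.23 (-0.91 to 1.36, adjusted p = 0.862), which leaves its direction open. Its mean of 104 lay just over the filter at 103.5, with the highest group mean in the arrays labelled as deleted. In H1093K against WT the fibroblast markers Pdgfrb and Col3a1 were called lower and Thy1 higher. Krt18 was the only one of 5 epithelial markers called, as higher. Krt18 read 384 and 383 in H1093K, against 172 and 168 in WT, while Cdh1 read 121 and 77.4 in H1093K, against 175 and 168 in WT. Their part in the result was not tested.

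With wild-type G9a, set against delta, 3 of 9 members rose, Bmp4, Smad6 and Id2, and 0 fell (12.3% of all probe sets called, 5.58% higher and 6.68% lower), and the median was 0.18. With the block, 5 were called, Smad7 lower and Bmpr1a higher besides these. Comparisons against delta share its 2 arrays. K165A against delta gave 3 higher, Bmp4, Bmpr1a and Smad6, and 2 lower, Smad7 and Id1 (11.6% of all called, 5.13% higher and 6.47% lower), with a median of 0.23. The count of 5 was 3 without K165A replicate 1 or with no filter, 2 without K165A replicate 2 or delta replicate 1, and 1 without delta replicate 2. With the mean of WT and K165A set against that of H1093K and delta, 4 arrays against 4, 7 members were higher and 0 lower (18.6% called, 8.62% higher and 9.97% lower). For Bmp4, Bmpr1a, Smad6 and Id2 the 2 sets of arrays did not overlap. For Id1, Id3 and Id4 they did. In Id1, K165A lay below delta (-0.38) while WT lay above it (0.16), so the pooled rise averages these. In Id3 and Id4, delta stood near WT or K165A. The share of all probe sets without overlap was not counted, so this only describes the members. Bmpr1a lost this pooled call without H1093K replicate 1 (0.0645), K165A replicate 2 (0.0559) or WT replicate 2 (0.0601). Id4 lost it without H1093K replicate 2 (0.0570), K165A replicate 2 (0.0542), WT replicate 2 (0.0564) or delta replicate 2 (0.0537).

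K165A set directly against WT gave 0 calls among the members and 0 among all probe sets (0%) in the limma fit. Before adjustment, p lay under 0.05 for 3 members, Bmp4, Id1 and Id2, and for 433 of the 13576 probe sets. Id1 was lower in K165A by 0.54 on the log2 scale (interval of the difference -0.74 to -0.35) and Id2 by 0.52 (-0.70 to -0.34), each with adjusted p = 0.430, the smallest of all probe sets. For both genes both K165A arrays lay below both WT arrays, as they did for Bmp4, Smad6 and Id4. The share of all probe sets without such overlap was not counted, so this only describes the members. Smad6 differed by -0.07 (-0.28 to 0.14) and Id3 by -0.12 (-0.33 to 0.08). With the replicate block no member passed, and the adjusted p was 0.0629 for Id1 and 0.0796 for Id2.

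In the arrays labelled as deleted against delta, 9 of the 9 members tested were called, 5 higher and 4 lower, beside 33.9% of all probe sets called (16.2% higher and 17.6% lower). Bmp4, Bmpr1a, Grem1, Smad6 and Id2 were higher, and Smad7, Id1, Id3 and Id4 lower. Grem1 is in these counts although the same arrays carried it past the filter, so nothing is read from the total. Id4 fell 2.20-fold and Id3 1.29-fold. The Id1 call was lost without deleted replicate 2 (0.115), delta replicate 1 (0.0575) or delta replicate 2 (0.0747), and the Id3 call without deleted replicate 1 (0.0903) or delta replicate 2 (0.0817). Against WT, 6 members were called (33.3% of all probe sets, 16.2% higher and 17.1% lower), Bmp4, Bmpr1a and Grem1 higher and Id1, Id3 and Id4 lower. Bmpr1a lost this call without WT replicate 1 (0.160) or either deleted array (0.111 and 0.0782) and with median centring (0.0982). In the same arrays, of 5 epithelial markers tested against delta, 3 were called higher (Krt8, Krt18 and Dsp) and 1 lower (Cdh1). Dsp read 357 and 358 in these arrays and 52.4 or less elsewhere. It passed the filter only through them, so its call is a description. Krt18 read 2108 and 2035 in them, against 583 and 553 in delta, while Cdh1 read 31.9 and 16.1, against 135 and 77.4 in delta. Epcam stayed at or below 35.9 on every array. The part of these markers in the differences was not tested.

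**Figure D3:**
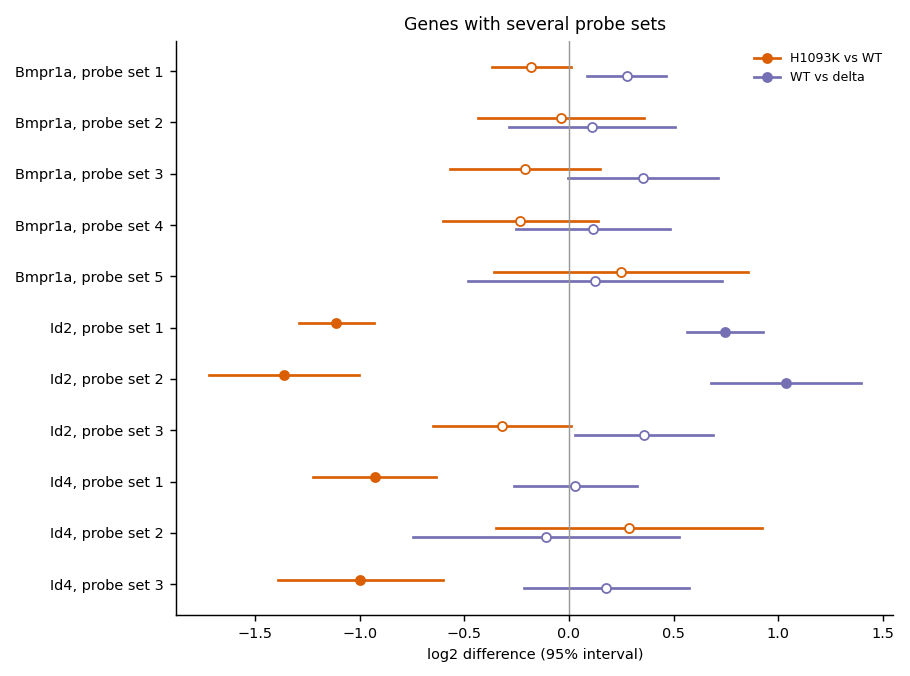
Log2 differences with 95% intervals (x axis) for each probe set of Bmpr1a, Id2 and Id4, numbered by falling mean signal, in H1093K against WT and in WT against delta. Filled points passed at an adjusted p of 0.05. Of 3 Id2 probe sets 2 passed in both comparisons, and of 3 Id4 probe sets 2 passed in H1093K against WT.

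Other genes of the pathway came from lists set out by role. Of 14 ligand genes, 11 were on the array and Bmp4 alone was bright enough to be tested. Of 5 receptors tested, Bmpr1a was the only one called in K165A against delta (11.6% of all probe sets called) or in the pooled comparison (18.6%). In WT and H1093K against delta 0 were called, where 12.3% and 0.869% of all probe sets were. The arrays labelled as deleted also had more Acvr1, another type I receptor, than delta (log2 difference 0.58, adjusted p = 0.00321). Of the signal-carrying Smads, Smad1, Smad5 and Smad4 were tested and 0 were called in any comparison (0% to 33.9% of all probe sets called). Lists this short cannot be told from such shares, so nothing is read from the receptor and Smad counts. Smad1 read 822 and 952 in K165A, 884 and 901 in H1093K, 850 and 980 in the arrays labelled as deleted, 884 and 999 in WT, and 732 and 763 in delta, so that delta was the lowest group. In WT against delta its difference was 0.33, with adjusted p = 0.0712.

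Among 9 tested antagonists, binding proteins and proteases, 0 rose and 3 fell in WT against delta, where 5.58% of all probe sets were higher and 6.68% lower. The list median was -0.33 beside -0.003 over all probe sets, and -0.04 beside 0 in the pooled comparison. Of these 3, Tll1 and Htra1 are proteases, so the count is not one of antagonists. The largest fall was in Tll1, a protease that cleaves the BMP antagonist chordin. It read 124 and 122 in K165A, 722 and 661 in H1093K, 153 and 173 in the arrays labelled as deleted, 127 and 150 in WT, and 498 and 483 in delta. Tll1 was thus high on the H1093K and delta arrays and low on the other 6. It fell 3.30-fold in WT and 3.64-fold in K165A against delta (adjusted p = 2.39e-05 and 1.34e-05) and was 4.60-fold higher in H1093K than in WT (1.20e-05). Htra1, a secreted protease, fell 1.32-fold and Twsg1, a BMP-binding protein, 1.26-fold in WT against delta. In H1093K against delta Htra1 gave -0.29 and Twsg1 -0.45, which did not pass (adjusted p = 0.232 and 0.0531). Neither was called in H1093K against WT (differences of 0.11 and -0.12), so these falls do not set WT apart from H1093K. Chordin itself (Chrd) fell 1.66-fold in K165A against delta (adjusted p = 0.0309).

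Among 9 tested inhibitors in the cell or membrane, which include Smad6 and Smad7, 2 rose and 1 fell in WT against delta (12.3% of all probe sets called). In the pooled comparison 5 rose and 1 fell (18.6% of all called). Smad6 is among those that rose in both (list median 0.24 in each, beside -0.003 and 0 over all). Tob1, known to bind Smads, rose 1.59-fold in WT against delta (adjusted p = 0.0294), and Skil, a Smad co-repressor, fell 1.22-fold (0.0222). Bambi, a decoy receptor without a kinase, read 256 and 230 in K165A, 190 and 122 in H1093K, 265 and 152 in the arrays labelled as deleted, 240 and 193 in WT, and 131 and 79.8 in delta. It was higher in WT and K165A than in H1093K and delta by 0.79 ± 0.21 (adjusted p = 0.0255), with no overlap between those 4 and 4 arrays.

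Of 12 tested genes known to respond to BMP, which include the Id genes, Smad6 and Smad7, 0 rose and 6 fell in H1093K against WT, where 4.13% of all probe sets were lower (list median -0.57 beside 0.01). In WT against delta 2 rose, Id2 and Smad6, and 0 fell, where 5.58% of all were higher (0.10 beside -0.003). In K165A against delta 2 rose and 4 fell, where 5.13% were higher and 6.47% lower (-0.09 beside 0.004). In the arrays labelled as deleted against delta 3 rose and 6 fell, where 16.2% were higher and 17.6% lower (-0.17 beside -0.01). Of the 6 that fell in H1093K against WT, Hey1, a transcription factor also driven by Notch, was the only one outside the members. It was picked out after its values were seen: 117 and 108 in K165A, 129 and 134 in H1093K, 30.0 and 53.6 in the arrays labelled as deleted, 273 and 247 in WT, and 293 and 259 in delta. K165A and H1093K were thus both low, and WT and delta overlapped. Hey1 fell 2.27-fold in K165A against delta (adjusted p = 0.00450) and 1.87-fold in H1093K against WT (0.0219), while K165A against WT gave -1.10 with adjusted p = 0.567. Of the 3 partners of Id proteins, Tcf4 rose 1.43-fold in WT and 1.37-fold in K165A against delta (adjusted p = 0.00310 and 0.00638) and fell 1.34-fold in H1093K against WT (0.0119). Tcf3 and Tcf12 were not called in any comparison.

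In the related TGF-beta arm, 4 of 14 tested genes rose and 2 fell in WT against delta, where 5.58% of all probe sets were higher and 6.68% lower (list median 0.23 beside -0.003). Tgfbi, a matrix protein induced by TGF-beta, read 3564 and 3275 in K165A, 2016 and 2040 in H1093K, 2149 and 2116 in the arrays labelled as deleted, 3815 and 3507 in WT, and 1206 and 1271 in delta. H1093K thus stood between WT and delta. Tgfbi rose 2.93-fold in WT, 2.74-fold in K165A and 1.63-fold in H1093K against delta (adjusted p = 2.73e-06, 2.54e-06 and 0.00419). The ligand Tgfb2 rose 1.69-fold in WT against delta (adjusted p = 0.000872), and Ltbp2, a matrix protein of the latent TGF-beta binding family, fell 2.02-fold (0.00418).

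**Figure D4:**
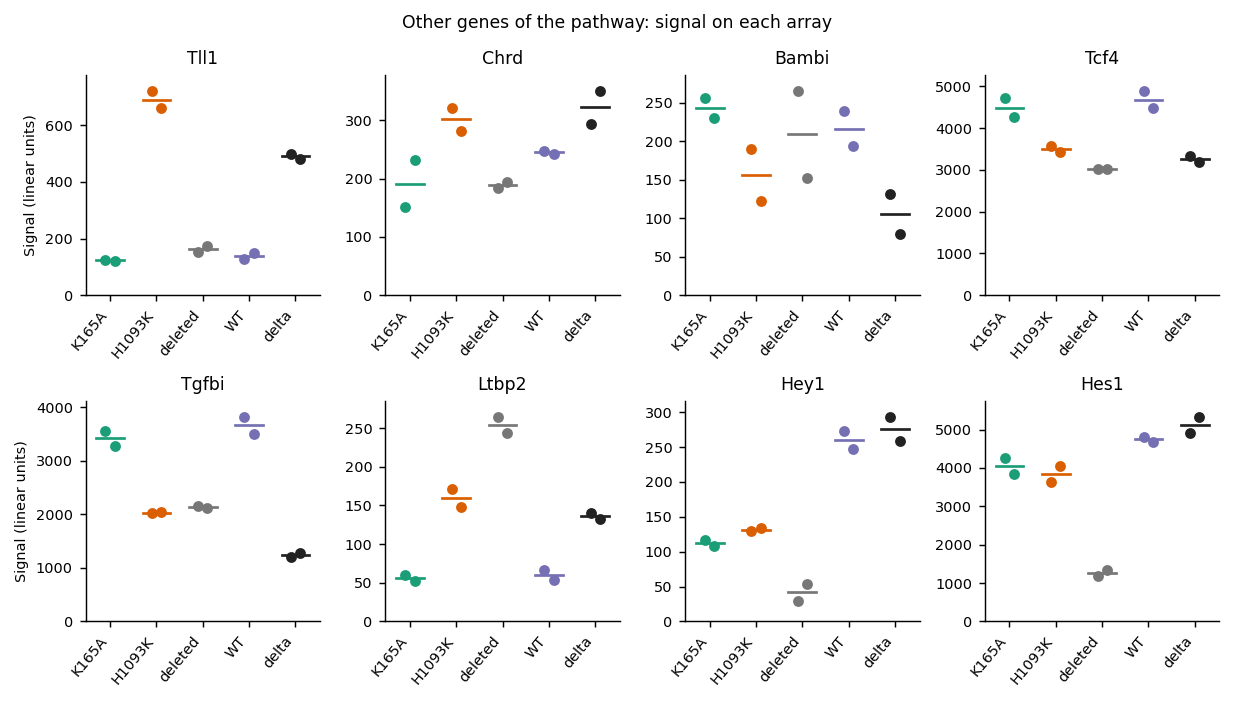
Signal in linear units (y axis, from 0) of 8 other genes of the pathway on each array, with points for arrays and lines for means of 2, in the groups K165A, H1093K, deleted, WT and delta. Tll1 is between 483 and 722 on the H1093K and delta arrays and at 173 or less on the others, and Hey1 is at or below 134 in K165A, H1093K and the arrays labelled as deleted.

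The genes whose log2 values ran closest to each member over the 10 arrays are given as a description, since the arrays are 5 pairs at 5 group levels. For Bmp4 they were Gas1 and Ahr (Pearson's r of 0.986 each) and Sub1 (0.985), and for Grem1 they were Postn (0.991), Tnfaip2 and Ptn (0.988 each). Smad6 ran with Abca1 (0.971), Marcksl1 (0.965) and Tbx18 (0.964), and Bmpr1a with Arid4b (0.990), Pbx3 (0.982) and Fbln1 (0.970). Id2 ran with Fam107b (0.954), Mapre2 (0.943) and Gtf2i (0.936), and Id4 with Hspa1b (0.972), Sptbn1 (0.928) and Rcan2 (0.924). Rcan2 (0.946) was also among those of Id3, with Tsc22d1 (0.951) and Ckb (0.947). The closest to Id1 were more distant, Porcn (0.886), Pde4b (0.854) and Egr3 (0.843), and those of Smad7 were Arfgef1 (0.915), Celf4 (0.912) and Mtch2 (0.908).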

How the data were processed

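Signal intensities on a linear scale were deposited by the authors, made with GCOS 1.4 per the submitters' processing notes; background and scaling options are not given in the sources used here. The mean trimmed by 2% at each end was 500.1 or 500.2 on every array, so no scaling was added. Of 22690 probe sets, 64 controls were left out. The platform annotation gave 1 gene for 20380 of the others, several for 691 and no gene for 1555. Symbols were updated through RefSeq's GRCm38.p6 gene table. Those with several or none were tested but not named.

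Signals were tested as log2(signal + 16), which understates changes of dim genes. The 13576 probe sets whose mean signal reached the 40th percentile entered limma 3.58.1 (R 4.3.3, lmFit, eBayes with trend) with 1 mean per group over all 10 arrays (5 residual and 4.69 prior degrees of freedom). The 8 comparisons were adjusted by Benjamini-Hochberg over all probe sets, at 0.05. With 2 arrays a group, the number of arrays limits the precision. On simulated data for WT against delta over 13576 probe sets, 87% of changes of 1 and 100% of changes of 2 on the log2 scale were recovered. False calls numbered 10. No recovery is given for smaller changes, such as the 0.515 of Smad6 in WT against delta. Genes were counted by their probe set of highest mean.

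Titles number the arrays of each group 1 and 2. The differences between a group's 2 arrays correlated between groups with r of 0.229 to 0.509 in all 10 pairs of groups, so the numbers were taken to pair the arrays, and the fit with the replicate number as a block is given where it changed a call. Other alternatives changed the pseudocount, filter, scaling or arrays used.

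Named were all members, Ehmt2, up to 4 genes of smallest p in each list in WT against delta or the pooled comparison, and the 3 genes most correlated with each member. The members and lists were chosen with earlier results of these data known.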

Additional observations from a re-analysis of the deposited data

How the results depend on the processing

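None of the 536 member differences recomputed under the other pseudocounts, filters, scalings, the replicate block or without both deleted arrays turned its sign, and 516 kept their side of the threshold. With 1 array left out, 657 of 720 kept sign and side, 44 lost their call, 2 gained one, and 17 that had not passed turned sign. The replicate block raised the members called to 5 in WT against delta and to 7 in H1093K against delta, and no filter lowered K165A against delta to 3. Leaving out 1 array gave 1 to 5 members in K165A against delta and 0 to 3 in H1093K against delta. Differences that turned sign ranged, with 1 array left out, from -0.033 to 0.12 for Bmpr1a in K165A against WT and from -0.31 to 0.53 for Grem1 in WT, -0.17 to 0.67 in K165A and -0.16 to 0.68 in H1093K against delta. Grem1 also ranged from -0.012 to 0.298 in K165A against WT and from -0.16 to 0.26 in the pooled comparison. Id3 in K165A against delta ranged from -0.018 to 0.133, Id4 in WT against delta from -0.024 to 0.084, and Smad6 in the deleted arrays against WT from -0.096 to 0.08. Smad7 against WT ranged from -0.329 to 0.056 in H1093K and from -0.346 to 0.039 in K165A. Over all probe sets, the block took 1664 calls to 2863 in WT and 1576 to 2719 in K165A against delta, 118 to 471 in H1093K against delta, 1138 to 1997 in H1093K against WT and 2524 to 3791 in the pooled comparison. H1093K against delta gave 60 with no filter, 69 without the deleted arrays and 7 to 93 with 1 array left out. With 1 array left out, WT and K165A against delta gave 830 to 1631 and 857 to 1411, and H1093K against WT 574 to 1083. A lone remaining array is assumed to vary like the other groups. Median centring took the share of calls that were higher in the deleted arrays to 36.6% from 48% against delta and to 37% from 48.6% against WT. The cause of these shifts was not tested. The replicate block changed no call of a member, by its brightest probe set, other than those given in the text (the 4-group test included), Smad7 in the pooled comparison (adjusted p = 0.0498) and Smad7 in the deleted arrays against WT (0.0324). Quantile normalization added Bmpr1a in WT against delta (0.0367), and median centring added Id2 in the deleted arrays against WT (0.0270).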

Other observations

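Several genes of the pathway were too dim for the main test. Of these, 4 are described that were picked out after their values were seen to separate groups. Their adjusted p and lack of overlap follow in part from that choice and are a description. With no filter on dim probe sets, limma gave them these values. Bmp6, a ligand whose mean lay just under the filter, read 107 and 129 in K165A, 60.9 and 52.8 in H1093K, 116 and 153 in the arrays labelled as deleted, 140 and 161 in WT, and 58.7 and 54.1 in delta. It was higher in WT than in delta by 1.20 on the log2 scale (0.70 to 1.70, adjusted p = 0.0128) and H1093K minus WT gave -1.19 (-1.69 to -0.69, adjusted p = 0.0159). In K165A against delta it gave 0.88 with adjusted p = 0.0512. Fst encodes follistatin, which binds activins and some BMPs. It read 33.8 and 48.6 in K165A, 6.76 and 6.44 in H1093K, 172 and 194 in the arrays labelled as deleted, 51.5 and 53.5 in WT, and 8.63 and 4.88 in delta. It passed in WT, K165A and the arrays labelled as deleted against delta (adjusted p = 0.00465, 0.0122 and 2.14e-05), with H1093K and delta under the pseudocount of 16, so no fold is given.

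Gata3, a transcription factor induced by BMP in several embryonic tissues, read 131 and 157 in K165A, 47.9 and 39.6 in H1093K, 88.4 and 91.5 in the arrays labelled as deleted, 111 and 141 in WT, and 35.6 and 34.9 in delta. It was higher than in delta by 1.46 in WT and 1.64 in K165A (adjusted p = 0.00505 and 0.00275), and the H1093K difference of 0.22 did not pass. Msx2, a homeobox gene known as a BMP target, ran the other way. It read 54.4 and 41.4 in K165A, 123 and 110 in H1093K, 54.4 and 47.3 in the arrays labelled as deleted, 79.4 and 62.2 in WT, and 157 and 128 in delta. It was lower by 0.97 in WT and K165A than in H1093K and delta (-1.34 to -0.59, adjusted p = 0.00565), with no overlap between those 4 and 4 arrays.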
